A study of Mus musculus with 95 samples.

Results

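The genes described here are 5 that have been tied to the growth of insulin-producing beta cells: Tph1 and Tph2, which encode the enzymes of the first step of serotonin synthesis, Prlr, the prolactin receptor, and Cish and Socs2, members of the SOCS family of cytokine signalling inhibitors. They were chosen by gene symbol, with earlier results of these data known, and make up 5 of the 20638 genes in the count table. All 5 passed a low-count filter, which kept 15766 genes with a CPM (count scaled to a common library total) of 1 or more in at least 10 libraries. The libraries are poly(A) RNA-seq libraries of islets, the groups of endocrine cells scattered through the pancreas, from mice fed a high-fat, high-sugar diet (45% fat per the labels). There were 95 of them, called here by the number in their label, from 1 to 100 with 5 numbers missing. The labels give neither strain nor sex, so the libraries formed 1 set without groups.

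Prolactin and the placental lactogens bind the prolactin receptor on beta cells, and the kinase JAK2 then activates the transcription factor STAT5. STAT5 is known to raise transcription of Cish and Socs2, whose products bind to activated receptors and dampen the signal. In pregnancy this pathway is known to induce Tph1 strongly in mouse beta cells, and the serotonin made there takes part in the growth of beta cell mass. Tph2 is best known as the tryptophan hydroxylase of neurons. A level in whole islets cannot tell fewer cells of a type from less RNA per cell.

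Insulin transcripts marked every library as islet RNA, with Ins2 at a median of 113000 CPM and a lowest value of 33200 CPM. Total counts ran from 16411809 to 34357253 with a median of 26552738. Libraries 91 to 100 stood apart in immune transcripts: 10 lymphocyte marker genes together took 0.00115% to 0.145% of counts there, with a median of 0.0282%, against a median of 0.001% and a highest value of 0.0103% in the other 85. Their beta cell list took a median of 12.9% of counts, against 19.1% in the others. The labels do not say that each library came from its own animal. The p-values below therefore measure the spread between libraries, which may be technical. Libraries with neighbouring numbers were more alike than others in all 5 genes, so the libraries may not be independent and the p-values may be too small.

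Per kilobase of exon, the order of the median levels was Prlr, Cish, Socs2, Tph2 and Tph1. The medians were 20.5, 13.4, 2.95, 0.227 and 0.0219 CPM per kb. Prlr and Cish, next to each other in that order, overlapped widely: Prlr was the higher of the pair in 73 libraries and Cish in 22. Cish exceeded Socs2 in 94 libraries, all but library 78. Socs2 exceeded Tph2 in all 95. Tph2 exceeded Tph1 in 82, and each of the 13 libraries with the reverse order was numbered between 9 and 16 or between 40 and 48.

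Spread between libraries was measured as the biological coefficient of variation, which edgeR derives from the dispersion of each gene beyond counting error. It exceeded 50% in 3824 of the 15766 genes past the filter (24.3%) and in 3 of the 5 genes described here. Tph1 had a coefficient of 187%, above that of 98.7% of those genes. Tph2 had 68.1%, Cish 62.9%, Socs2 38.6% and Prlr 36.6%. Genes with few counts tend to have high coefficients, and Tph1 and Tph2 lay low in level, whereas the median of Cish was above that of 89.8% of genes and its coefficient above that of 82.4%.

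**Figure D1:**
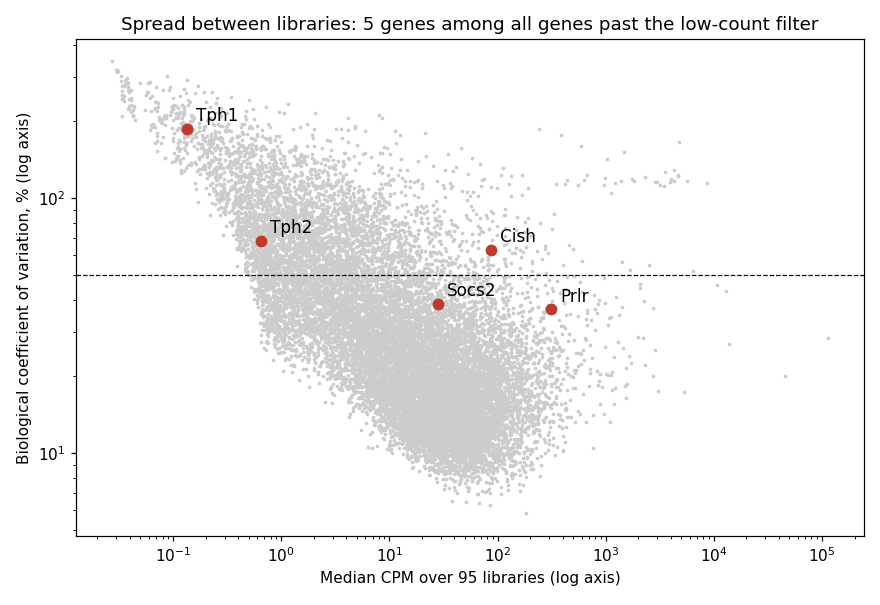
Each point is 1 of 15766 genes, with its median CPM over 95 libraries on the x axis and its biological coefficient of variation in percent on the y axis, both on log scales; the dashed line marks 50%. Tph1 (187%), Tph2 (68.1%) and Cish (62.9%) lie above the line, and Socs2 (38.6%) and Prlr (36.6%) lie below it.

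Tph1 (ENSMUSG00000040046, chromosome 7, 46647130 to 46672537, GRCm38) was near the limit of detection in most libraries and clearly present in a minority. Its estimated count was 0 in 22 of 95 libraries and 1 to 3 in another 27. A count of 3 corresponds to 0.0747 to 0.215 CPM, depending on the library. Its lowest level was therefore 0, its median 0.135 CPM and its highest 10.3 CPM, in library 16, where 286 counts lay behind the value. Levels of 1 CPM or more occurred in 20 libraries and of 2 CPM or more in 13.

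The high Tph1 libraries had neighbouring numbers. In the 16 libraries numbered 9 to 16 and 40 to 48, a run picked out after the values were seen and given without a test, Tph1 ranged from 0.488 to 10.3 CPM with a median of 3.36. In the other 79 it ranged from 0 to 5.64 CPM with a median of 0.0954. The ranges overlapped, with 9 of the 79 above the lowest of the 16. Libraries 72 to 75, at 2.24, 5.64, 1.65 and 2.41 CPM, and library 97, at 1.49 CPM, were the only ones outside the run at 1 CPM or more. Across the whole set, the median difference between libraries next to each other in number (89 pairs) was 0.85 log2 units, against 1.71 log2 units over all pairs.

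In each of the 15 marker lists the 16 libraries overlapped the rest, with higher medians in some. Their delta cell list, headed by somatostatin (Sst), took 0.257% to 0.687% of counts (median 0.411%), against 0.0608% to 1.12% (median 0.24%) in the other libraries. Their fibroblast list took 0.0385% to 0.101% (median 0.058%), against 0.0102% to 0.166% (median 0.0321%). Of 9 mast cell genes, a further cell type known to make serotonin through Tph1, 3 were in the table. Cpa3, the mast cell carboxypeptidase, had a median of 0.0364 CPM and no more than 1.37 CPM in any library. Kit, the stem cell factor receptor, which other cells also express, was higher, at a median of 11.1 CPM and up to 59.8 CPM in library 100. Hdc, the histamine-forming decarboxylase, had a median of 1.99 CPM. Against Tph1, Kit had a rho of 0.33 and rose by 0.10 per doubling (SE 0.0388, edgeR adjusted p = 0.0455), and Hdc had a rho of -0.16 and did not pass. Neither passed with Tph1 without libraries 76 to 85. The summed mast cell list took a median of 0.00133% of counts in the 16 libraries and 0.00127% in the others. The part of cell composition in the Tph1 levels was not tested.

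Tph2 (ENSMUSG00000006764, chromosome 10, 115078641 to 115185022) was low but detected in all 95 libraries. It ranged from 0.0721 CPM in library 49, a count of 2, to 3.29 CPM in library 31, a count of 95, with a median of 0.655 CPM. It reached 1 CPM in 25 libraries. After library 31, the highest values were 2.96 CPM in library 90, 2.69 CPM in library 73 and 2.4 CPM in library 41. Unlike Tph1, its values in libraries 9 to 16 and 40 to 48 (0.254 to 2.4 CPM, median 0.952) lay within those of the rest (0.0721 to 3.29 CPM, median 0.594).

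Prlr (ENSMUSG00000005268, chromosome 15, 10177238 to 10349180) was the most abundant of the 5, with a median above that of 98.6% of genes past the filter. Its lowest level was 117 CPM in library 46, its median 314 CPM and its highest 800 CPM in library 31. Library 27 (779 CPM), library 73 (688 CPM) and library 19 (608 CPM) followed at the top. Libraries 47, 97 and 89 were next to the lowest, at 136, 152 and 154 CPM. Levels in libraries 76 to 85 lay between 177 and 246 CPM, and those in libraries 91 to 100 between 152 and 307 CPM, so both runs sat below the median of the set.

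STAT5 binds the palindrome TTCNNNGAA, which reads the same on both strands, and promoter windows were searched for it. RefSeq (GRCm38.p6) gives windows of 300 bases, 250 before and 50 after each start site. Windows were at hand for 4 of the 5 genes, and Socs2, without one, was not searched. Of 32851 windows, 2726 (8.3%) held the motif at least once and 150 (0.457%) held it 2 or more times. The 2 windows of Tph1 and the 1 of Tph2 held none. Prlr has 3 start sites there, and 1 of its windows held the motif once, with its first base at position -110 relative to the start site. That window is shown because it carries the only match outside Cish among the genes searched. The 250 bases before its start site, chr15:10223656-10223905 on the plus strand, read as follows with the motif in capitals.
Prlr: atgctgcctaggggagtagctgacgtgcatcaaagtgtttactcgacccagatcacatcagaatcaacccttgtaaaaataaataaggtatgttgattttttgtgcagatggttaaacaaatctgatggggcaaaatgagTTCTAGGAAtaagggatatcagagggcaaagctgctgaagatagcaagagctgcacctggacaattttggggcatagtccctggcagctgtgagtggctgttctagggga
A match is a run of letters, not evidence of binding.

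Cish (ENSMUSG00000032578, chromosome 9, 107296026 to 107302784) had the widest range of the 3 well-expressed genes. Its window was among the 0.457% with 2 matches, at the start site itself and 11 bases further on, with 2 bases between them. The 30 bases around them, chr9:107296654-107296683 on the plus strand, are shown with both motifs in capitals, after the 250 bases before the start site (chr9:107296409-107296658), which held none.
Cish upstream: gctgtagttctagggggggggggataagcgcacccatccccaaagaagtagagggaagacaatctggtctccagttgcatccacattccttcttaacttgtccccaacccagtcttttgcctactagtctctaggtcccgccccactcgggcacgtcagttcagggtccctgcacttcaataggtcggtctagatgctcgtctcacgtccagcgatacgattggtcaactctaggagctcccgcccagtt
Cish start: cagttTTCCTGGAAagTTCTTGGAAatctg
The RefSeq start site lies inside the gene as the authors' table draws it, and no signal over these sequences was measured here.

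Cish ranged from 4.75 CPM in library 78 to 288 CPM in library 9, a 60.5-fold difference, with a median of 86.2 CPM. After library 9, the highest were library 25 (222 CPM), library 47 (217 CPM) and library 27 (213 CPM). Libraries 9 to 16 and 40 to 48 lay between 101 and 288 CPM with a median of 166. The other 79 had a median of 73.7 CPM, and 22 of them were above the lowest of the 16.

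The lowest Cish levels were also neighbours. Libraries 76 to 85 ranged from 4.75 to 69.3 CPM with a median of 23.9, and the median of the other 85 was 96.9 CPM. Libraries 78 and 79, at 4.75 and 9.26 CPM, had deviations of -4.41 and -3.40 from the median of log2 CPM, in units of the scaled median absolute deviation. They were the only values of any of the 5 genes beyond 3 such units in either direction. Their depth was ordinary (24873500 and 27325654 counts), and 142 counts lay behind the lower value. Their beta cell lists took 18.6% and 20.7% of counts and their acinar lists 5.58% and 4.58%, close to the medians of the set, 18% and 6%. Their alpha cell lists were higher, at 2.12% and 2.37% against 1.38%, and so were their adipocyte lists, at 0.00588% and 0.00501% against 0.000874%. In both, Prlr (241 CPM in each) was below the median of the set and Tph2 (0.906 and 1.05 CPM) above it.

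Some marker lists moved with the low Cish run. In libraries 76 to 85 the adipocyte list, of which Fabp4 and Cidec were in the table, took 0.00249% to 0.00601% of counts, and 84 of the other 85 libraries lay below the lowest of these. The alpha cell list had a median of 2.56% there and 1.34% elsewhere, and the acinar list 2.87% and 6.88%. Fabp4, a fatty acid binding protein gene of adipocytes that endothelial cells and macrophages also express, fell by 0.49 per doubling of Cish (SE 0.0693, edgeR adjusted p = 1.49e-08) and by 0.76 per doubling of Socs2. Without libraries 76 to 85 its slopes were -0.16 and -0.12, and neither passed. The part of cell composition in the low Cish levels was not tested.

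Cish reads may be shared with an antisense gene. Gm17041 (chromosome 9, 107300380 to 107301838) lies inside Cish on the opposite strand, and its level followed that of Cish with a Spearman rho of 0.91. It reached no more than 16.3 CPM, with a median of 3.75 CPM. The use of strand in the counting was not given in the sources used here, so reads of the pair cannot be told apart.

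Socs2 (ENSMUSG00000020027, chromosome 10, 95385362 to 95417180) varied over a narrower range than Cish, from 10.5 CPM in library 34 to 71.1 CPM in library 31, with a median of 28.2 CPM. Libraries 57, 19, 27 and 25 followed the highest, at 59.6, 58.7, 57.3 and 52.4 CPM. The next lowest were libraries 82, 78, 35 and 79, at 11.7, 11.7, 12.4 and 12.6 CPM. Libraries 76 to 85 had a median of 14.7 CPM against 29.3 CPM in the rest, with overlap. Library 31 was highest for Tph2, Prlr and Socs2 together, and libraries 78 and 79 were low for both Cish and Socs2. Neighbouring libraries differed by a median of 0.36 log2 units in Socs2, 0.59 in Cish, 0.34 in Prlr and 0.66 in Tph2. Over all pairs of libraries the same medians were 0.55, 0.92, 0.51 and 0.94 log2 units.

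**Figure D2:**
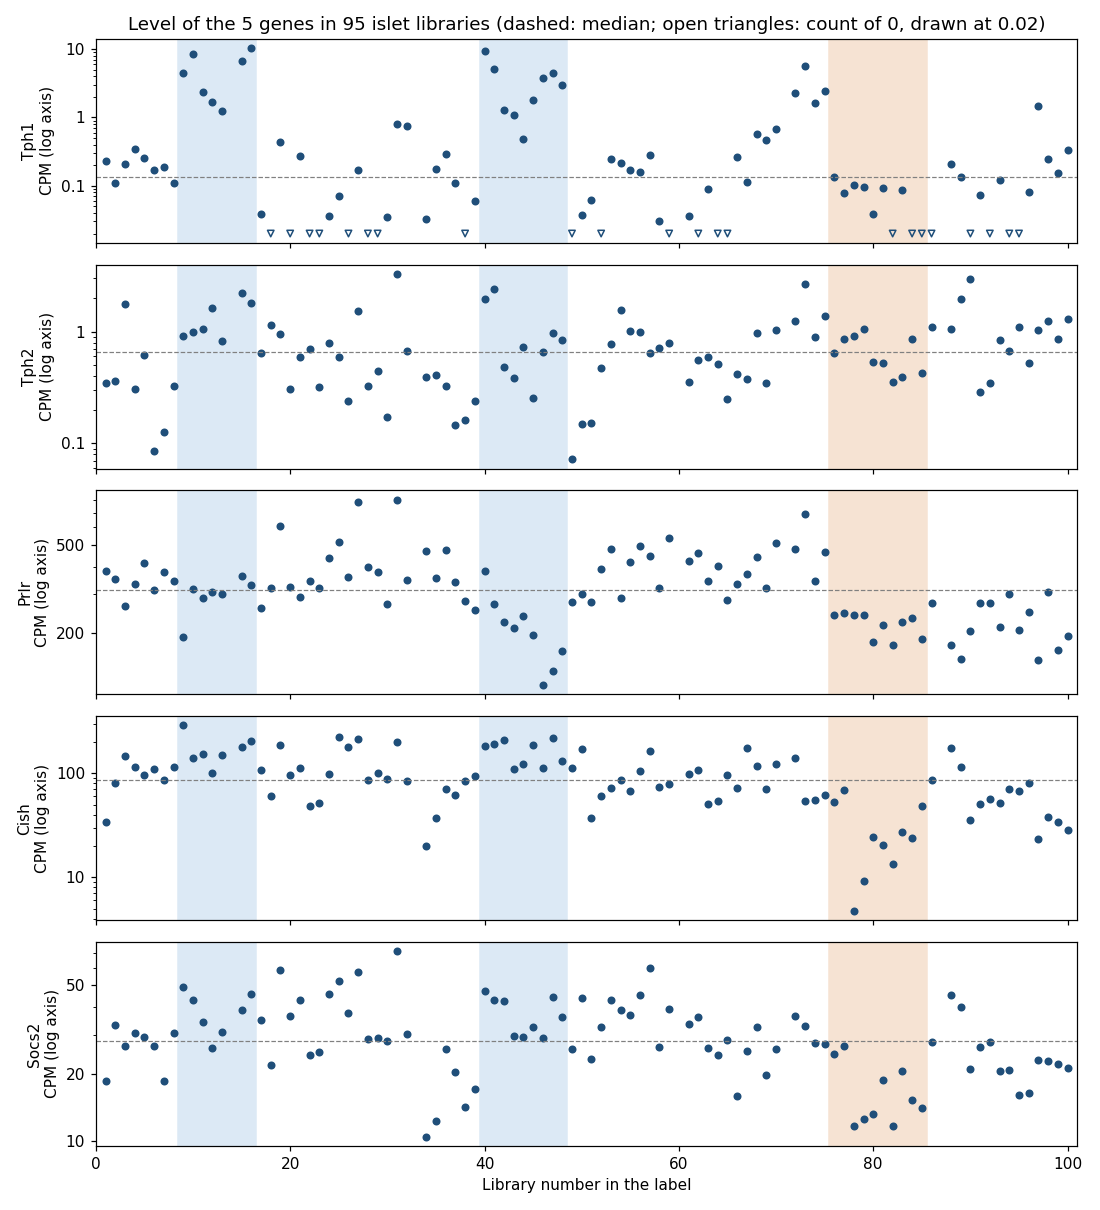
Each panel plots the CPM of 1 gene (y axis, log scale) against the library number (x axis) for 95 libraries, with the median dashed; open triangles are counts of 0, drawn at 0.02. Blue shading marks libraries 9 to 16 and 40 to 48, where Tph1 had a median of 3.36 CPM, and orange shading libraries 76 to 85, where Cish had a median of 23.9 CPM.

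The 2 signalling inhibitors varied together more closely than any other pair. Cish and Socs2 had a Spearman rho of 0.78 and a Pearson r of 0.78 over the 95 libraries (adjusted p = 5.00e-05 for each, permutation test of 100000 resamples, adjusted over the 10 pairs). The r was 0.76 without libraries 78 and 79, the farthest from the median of Cish. Their rho was 0.83 in the 48 libraries numbered 50 or lower, 0.71 in the 47 above, and 0.68 when differences between neighbouring libraries took the place of levels. In edgeR's quasi-likelihood regression, Socs2 rose by 0.43 log2 units per doubling of Cish (SE 0.0353, Benjamini-Hochberg adjusted p = 2.95e-17).

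The receptor and the inhibitors were less closely tied. Prlr and Socs2 had a rho of 0.33 (adjusted p = 0.00282, permutation test) and an r of 0.35. This rested on part of the libraries: rho was 0.07 up to number 50, 0.57 after it, and 0.22 without libraries 76 to 85, where the permutation test gave an adjusted p = 0.0709. Prlr and Cish had a rho of 0.19, which missed the threshold (adjusted p = 0.0930, permutation test), and an r of 0.24, which passed it (adjusted p = 0.0313). Within numbers of 50 or lower their rho was -0.21 and above 50 it was 0.55, a difference that was not tested. The scatter of Prlr against Cish shows libraries 9 to 16 and 40 to 48 at high Cish across low and middling Prlr, and without them rho was 0.44 (adjusted p = 2.00e-04, permutation test).

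Tph1 rose with Tph2, Cish and Socs2 and showed no relation to Prlr over all libraries. It passed the low-count filter only through libraries 9 to 16 and 40 to 48, the run of high Tph1. Its relations are therefore given as a description. Tph1 and Tph2 had a rho of 0.44, with 0.59 in libraries up to number 50 and 0.43 after it. Tph1 and Cish had a rho of 0.43 and Tph1 and Socs2 of 0.37. Both were weaker without that run, where rho was 0.19 for Cish and 0.23 for Socs2. The r of Tph1 and Socs2 there was 0.24. With differences between neighbouring libraries the rho of Tph1 and Socs2 was 0.38, whereas that of Tph1 and Cish was 0.14. The rho of Tph1 and Tph2 was 0.32 without that run. Tph1 and Prlr had a rho of 0.01 (adjusted p = 0.974, permutation test) over all libraries. Without that run the rho of Tph1 and Prlr was 0.26. The median of Tph1 was 0.0954 CPM there, near the limit of detection.

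Tph2 was linked to Socs2 and not detectably to Cish or Prlr. Its rho with Socs2 was 0.30 (adjusted p = 0.00563, permutation test) and 0.21 without libraries 9 to 16 and 40 to 48 (adjusted p = 0.0888, permutation test). The r there was 0.25 and passed (adjusted p = 0.0402, permutation test). Libraries 34 to 39, a run picked out after the values were seen, were low in both genes. Their medians were 0.283 CPM for Tph2, against 0.704 elsewhere, and 15.7 CPM for Socs2, against 29. The part of that run in the relation was not tested. The rho of Tph2 with Cish was 0.14 (adjusted p = 0.212, permutation test), and 0.47 within numbers of 50 or lower. With Prlr it was 0.00 (adjusted p = 0.974, permutation test). The widest gap in the sorted log2 values of any of the 5 genes, with at least 6 libraries on each side, was 7.52% of that gene's range. The pairs themselves were not examined for clusters.

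**Figure D3:**
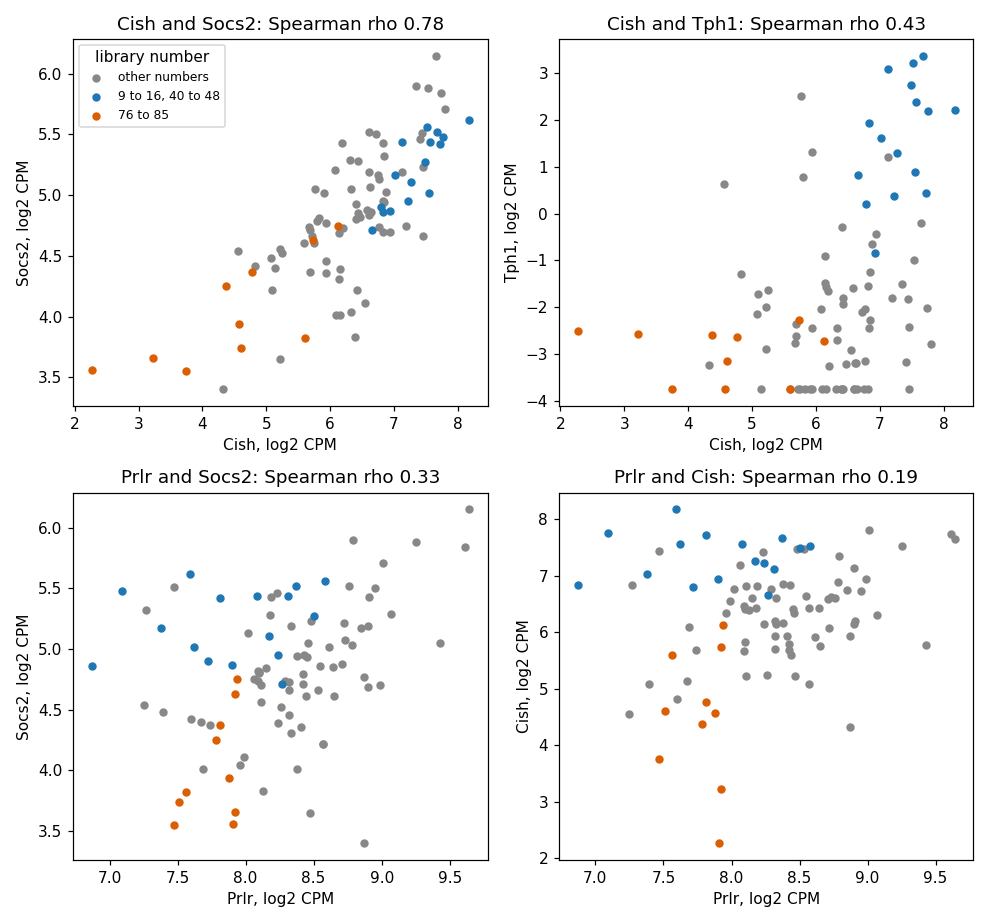
Each panel plots log2 CPM of 1 gene against another, 1 point per library (95), for Cish and Socs2, Cish and Tph1, Prlr and Socs2, and Prlr and Cish. Cish and Socs2 (rho 0.78) form the tightest band, and in the panel of Tph1 the libraries numbered 9 to 16 and 40 to 48 (blue) form the upper right.

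The other genes of serotonin synthesis were then read against each gene in turn. For each of the 5, every gene past the filter was regressed on its log2 CPM in edgeR, giving a slope in log2 units per doubling. With Tph1, 13.4% of all genes rose and 13.4% fell. Of the 9 other synthesis genes 4 rose with Tph1 and 0 fell: Tph2 by 0.22 (SE 0.0455), Qdpr by 0.09 (SE 0.012), Gch1 by 0.06 (SE 0.0185) and Pcbd1 by 0.04 (SE 0.0118). Gch1 starts the synthesis of tetrahydrobiopterin, the cofactor of tryptophan hydroxylase, and Qdpr and Pcbd1 recycle it. Without libraries 9 to 16 and 40 to 48 Tph1 did not pass the low-count filter, and its median was 0.0954 CPM, near the limit of detection. Slopes on it there are given as a description. Those of Qdpr, Pcbd1 and Gch1 were 0.04, 0.03 and -0.03, and none of these passed, whereas that of Tph2 was 0.28. In all, 3 of 9 rose there, against 17.2% of all genes. With Tph2, 11.1% of all genes rose and 7.96% fell, and 2 of the 9 other synthesis genes rose, Tph1 by 1.59 and Qdpr by 0.11. Without that run the slope of Qdpr was 0.06 and did not pass, and Tph1 did not pass the low-count filter, so its slope could not be tested there.

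The next enzyme on the path behaved otherwise. Ddc, the decarboxylase that turns 5-hydroxytryptophan into serotonin and L-DOPA into dopamine, had a median of 301 CPM and a range of 94.7 to 406 CPM. Its slopes on Tph1 and Tph2 were -0.02 and -0.04 and did not pass the test. It rose with Prlr by 0.44 per doubling (SE 0.042, edgeR adjusted p = 1.52e-13), and of all genes past the filter it was the one whose pattern was most like that of Prlr, with a rho of 0.78. In libraries up to number 50 it was 0.80, and in the later ones 0.76. With Prlr 20.5% of all genes rose and 23.6% fell. Of the 10 synthesis genes 3 rose and 0 fell, the others being Pts, a tetrahydrobiopterin enzyme, by 0.19 and Th, tyrosine hydroxylase, by 0.60. With libraries 9 to 16 and 40 to 48 left out, 6 of 9 rose with Prlr, against 20.7% of all genes. Without libraries above 90, 2 of 10 rose, against 15.9%, and without libraries 76 to 85, 3 of 10, against 20.7%. The slope of Th was 0.38 and did not pass without libraries above 90 (edgeR adjusted p = 0.145).

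With Cish 16.1% of all genes rose and 23.8% fell, and with Socs2 12.5% rose and 17.8% fell. Of the 10 synthesis genes 4 rose with Cish and 5 with Socs2, and 0 fell with either. Both counts that rose include Tph1. Without libraries 9 to 16 and 40 to 48, where Tph1 did not pass the filter, 3 of 9 rose with Cish and 3 of 9 with Socs2, against 12.5% and 9.44% of all genes. Over all libraries Gch1 and Qdpr rose with both, by 0.16 and 0.15 per doubling of Cish and by 0.33 and 0.20 per doubling of Socs2. The slope of Qdpr on Socs2 was 0.08 and did not pass without libraries 9 to 16 and 40 to 48. Tph1 rose by 1.14 per doubling of Cish (SE 0.228) and by 2.98 per doubling of Socs2 (SE 0.48), but it passed the low-count filter only through the run of libraries where it is high, so neither slope could be tested without that run.

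Of 6 genes of serotonin transport and breakdown past the filter, 2 rose and 1 fell with Prlr and 1 rose and 1 fell with Cish. With Tph1 0 rose and 1 fell, and with Tph2 and with Socs2 1 rose and 0 fell, beside the shares of all genes given above. Slc18a1, the vesicular monoamine transporter of endocrine cells, had a median of 11.1 CPM and rose with Prlr by 0.71 (SE 0.161, edgeR adjusted p = 1.69e-04). It fell by 0.27 per doubling of Tph1 (edgeR adjusted p = 2.93e-07). That slope was -0.02 without libraries 9 to 16 and 40 to 48. Maob, a monoamine oxidase, rose with Prlr by 0.21, with Cish by 0.15 and with Socs2 by 0.27, but its slope on Prlr did not pass without libraries above 90 (0.13), nor that on Cish without libraries 9 to 16 and 40 to 48. Slc6a4, the serotonin reuptake transporter, was low at a median of 0.241 CPM and passed with none of the 5. Tgm2, a transglutaminase that can couple serotonin to proteins, had a median of 11.4 CPM and reached 146 CPM in library 97. It fell by 1.25 per doubling of Prlr (SE 0.173, edgeR adjusted p = 1.65e-08) and rose by 0.45 per doubling of Tph2 (SE 0.12, edgeR adjusted p = 0.00628), and both slopes passed under all 9 alternatives. Without libraries above 90 the slope on Prlr was -0.64. Its slope on Cish was -0.42 over all libraries and 0.10, not passing, without those above 90.

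Of 14 serotonin receptor genes 10 were in the table and 3 passed the filter. Htr3a, a subunit of the serotonin-gated channel, had a median of 0.716 CPM and rose with Tph1 by 0.20 (SE 0.0612, edgeR adjusted p = 0.00968). Htr5b, at a median of 0.0681 CPM, was listed at 0 in 22 libraries and reached 7.27 CPM in library 44. It failed the low-count filter once libraries 9 to 16 and 40 to 48 were left out, so its slopes of 1.09 on Tph1, 1.63 on Cish, 2.00 on Socs2 and -1.80 on Prlr are given without a test. Htr3a also rose with Cish by 0.31, narrowly (edgeR adjusted p = 0.0497), and that slope was lost under 5 of the 9 alternatives. Htr2b and Htr1d, the receptors tied to beta cell growth in and after pregnancy, had medians of 0.0389 and 0.16 CPM and did not pass the filter.

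Along the path from the receptor, the ligand genes on the list (Prl, Gh and placental lactogens among them) were not analysed here. Ghr, the growth hormone receptor, which also signals through JAK2 and STAT5, had a median of 190 CPM and rose with Prlr by 0.21 (SE 0.0439, edgeR adjusted p = 7.24e-05). Of 8 JAK and STAT genes 0 rose and 4 fell with Prlr (23.6% of all genes fell), 0 rose and 6 fell with Cish (23.8%), and 0 rose and 4 fell with Socs2 (17.8%). These counts rested on the immune-rich libraries. Without libraries above 90, 1 rose and 1 fell with Prlr, where 15.9% of all genes rose and 13.9% fell, and 1 rose and 1 fell with Cish, where 14% rose and 15.9% fell. With Socs2, 1 rose and 2 fell there, against 12.6% and 15.8% of all genes, and 0 of 8 passed without libraries 9 to 16 and 40 to 48. Jak3 fell with Prlr by 0.86 over all libraries and by 0.56 without those above 90 (edgeR adjusted p = 5.80e-08). Stat5b, at a median of 80.9 CPM and a coefficient of variation of 13.6%, fell by small amounts with Tph1 (slope -0.03), Tph2 (-0.08), Cish (-0.05) and Socs2 (-0.10), and its slope on Prlr (0.05) did not pass. The slope on Tph2 passed under all 9 alternatives. Those on Cish and Socs2 did not pass without libraries 9 to 16 and 40 to 48, nor did that on Cish without libraries above 90. Without libraries 9 to 16 and 40 to 48 the slope on Tph1 was 0. It is given as a description, because Tph1 did not pass the low-count filter there.

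Within the SOCS family the inhibitors did not move as 1 block. Socs3, the most abundant member at a median of 441 CPM, rose with Cish by 0.30 (SE 0.0756, edgeR adjusted p = 9.02e-04), but its slope on Socs2 was 0.06 and did not pass. Socs4 fell by 0.14 per doubling of Cish (SE 0.0228, edgeR adjusted p = 8.89e-07) and by 0.16 per doubling of Socs2. Without libraries 76 to 85 neither the slope of Socs3 on Cish nor that of Socs4 on Socs2 passed. Socs7 rose with Cish by 0.08. Of the 7 other members 3 rose and 1 fell with Cish, against 16.1% and 23.8% of all genes, and 1 rose and 2 fell with Socs2, against 12.5% and 17.8%. Without libraries above 90, 4 rose and 3 fell with Cish, against 14% and 15.9%.

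A list of genes known to respond to prolactin or pregnancy in islets held 21 genes past the filter. With Prlr 5 rose and 5 fell, shares of the list close to those of all genes (20.5% and 23.6%). Of 20 genes past the filter without libraries 9 to 16 and 40 to 48, 8 rose and 5 fell, against 20.7% and 22.9%, and without libraries above 90, 5 of 21 rose and 2 fell, against 15.9% and 13.9%. Those that rose included Ccnd2 and Ccnd1, D-type cyclins of beta cell division, by 0.30 (SE 0.05, edgeR adjusted p = 6.01e-07) and 0.39 (SE 0.0884, edgeR adjusted p = 1.54e-04), Slc2a2, the glucose transporter of mouse beta cells, by 0.33, and Ivd, a leucine breakdown enzyme, by 0.61. All of these passed without libraries above 90 and without libraries 9 to 16 and 40 to 48. The slopes of both cyclins on Cish and Socs2, from -0.09 to 0.00, did not pass. Ccnd1 had a rho of -0.28 with Cish and -0.07 with Socs2, and Ccnd2 of -0.07 and -0.05.

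Of the 20 genes of that list other than Cish, 7 rose and 5 fell with Cish, and of the 20 other than Socs2, 7 rose and 4 fell with Socs2. The counts that fell were near the shares of all genes (23.8% and 17.8%), and those that rose stand beside 16.1% and 12.5%. Both counts that rose include Tph1, which passed the low-count filter only through libraries 9 to 16 and 40 to 48. Without libraries 9 to 16 and 40 to 48, 4 of 19 rose and 5 fell with Cish, against 12.5% and 18.5% of all genes, and 4 of 19 rose and 2 fell with Socs2, against 9.44% and 11.6%. Igfals, the acid-labile subunit of the IGF carrier complex and a growth hormone target in liver, rose with Cish by 0.28 (SE 0.0453, edgeR adjusted p = 4.00e-07) and with Socs2 by 0.61 (SE 0.0746, edgeR adjusted p = 3.08e-09). Bcl6, a repressor known to be lowered by STAT5, fell by 0.37 per doubling of Cish (SE 0.0702, edgeR adjusted p = 1.43e-05) and by 0.77 per doubling of Socs2 (SE 0.124, edgeR adjusted p = 2.96e-06). It also fell by 0.62 per doubling of Prlr. All 5 of these slopes kept their sign and passed without libraries above 90, without libraries 76 to 85 and without libraries 9 to 16 and 40 to 48.

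With Tph1, 7 of the 20 other genes of the list rose and 2 fell, against 13.4% and 13.4% of all genes. With Tph2 also 7 rose, Tph1 among them, and 2 fell, against 11.1% and 7.96%. Without libraries 9 to 16 and 40 to 48, where Tph1 did not pass the filter, 6 of 19 rose and 2 fell with Tph2, against 12.3% and 6.67%. The slopes that follow are over all libraries. Chgb, a granin of secretory granules and the most abundant of the list at 1320 CPM, rose with Tph1 by 0.12 and with Tph2 by 0.31 (SE 0.0414, edgeR adjusted p = 1.38e-07). Matn2, an extracellular matrix gene, rose with both, by 0.15 and 0.30. Ccnd1 fell by 0.14 per doubling of Tph1. Without libraries 9 to 16 and 40 to 48, 3 of the list rose and 1 fell with Tph1, against 17.2% and 12.7% of all genes, and the slopes of Ccnd1 (-0.03), Chgb (0.08) and Matn2 (0.14) on Tph1 did not pass. Tph1 itself did not pass the low-count filter there.

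A list of STAT5 and growth hormone targets from other tissues held 11 genes past the filter. Of the 10 other than Cish, 6 rose and 1 fell with Cish, against 16.1% and 23.8% of all genes. Of the 10 other than Socs2, 4 rose and 0 fell with Socs2, against 12.5% and 17.8%. Pim3, a kinase gene, rose with Cish by 0.40 (SE 0.0579, edgeR adjusted p = 2.20e-08) and with Socs2 by 0.39, the latter not passing without libraries 9 to 16 and 40 to 48 or without libraries 76 to 85. Without libraries 76 to 85, 4 rose and 3 fell with Cish, against 16.1% and 24.7% of all genes there. With Prlr 2 of the 11 rose and 3 fell, near the shares of all genes (20.5% and 23.6%), and Onecut1 fell by 1.19 at a median of 0.485 CPM, a slope that did not pass without the 10 libraries of lowest totals.

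Genes of cell division gave another relation that rested on few libraries. Of 15 genes 15 fell with Prlr, 14 with Cish and 10 with Socs2, against 23.6%, 23.8% and 17.8% of all genes. With Tph2 5 rose, against 11.1% of all genes, and with Tph1 1 rose. Mki67, the Ki-67 proliferation marker, fell by 1.03 per doubling of Prlr, but its rho with Prlr was -0.09. Without libraries above 90, 13 of these genes passed the filter, and 0 fell with Prlr, 3 with Cish and 2 with Socs2, against 13.9%, 15.9% and 15.8% of all genes, while 1 rose with Tph2. When libraries 9 to 16 and 40 to 48 were left out, 2 of 15 fell with Socs2 (11.6% of all genes), and 11 rose with Tph2 (12.3%) and 8 with Tph1 (17.2%). Tph1 itself was near the limit of detection in that setting. The division list took a median of 0.00983% of counts in libraries 91 to 100 and 0.00255% in the others, beside the immune markers given above.

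**Figure D4:**
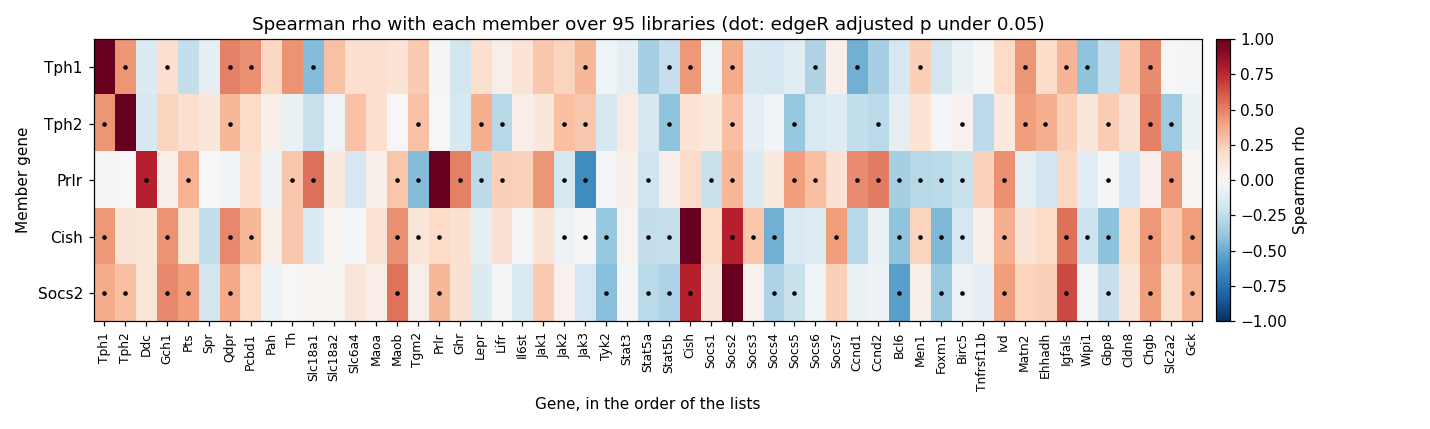
Colour gives Spearman's rho over 95 libraries between each of the 5 genes (rows) and the genes of the serotonin, receptor, JAK-STAT, SOCS and prolactin target lists (columns), and a dot marks an adjusted p under 0.05 in edgeR. The darkest off-diagonal cells are Prlr with Ddc (0.78) and Cish with Socs2 (0.78).

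The genes most like each of the 5 over the 95 libraries were taken from all genes past the filter, by Spearman's rho and as a description. For Tph1 they were Tbcel (0.70), Nqo1 (0.69), Cacna2d2, Piwil4 and Svil (0.68 each). Tbcel, whose product acts on tubulin, had a rho of 0.73 both up to number 50 and after it. The most opposed were D230017M19Rik and Gm13115 (-0.71 each) and Grtp1 (-0.70). For Tph2 they were Car8, a carbonic anhydrase-related protein gene (0.68), Dgat2, an enzyme of triglyceride synthesis (0.58), Vwa5a (0.56), B3galnt1 and C330027C09Rik (0.55 each), with Arhgap39 the most opposed (-0.64), then Otud5 and Cdh8 (-0.57 each).

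Prlr was most like Ddc (0.78), Ttc19 (0.74), Acbd5 (0.72), Slc39a6 and Gnl3l (0.71 each). The most opposed were Tinagl1 (-0.77), Serhl (-0.74) and Tcirg1 (-0.68), a proton pump subunit gene. Leaving aside the antisense gene, Cish was most like Socs2 (0.78), the transcription factor gene Cebpd (0.76), Gm16314 (0.70) and Foxo3 (0.69). For Foxo3, also a transcription factor gene, rho was 0.28 up to number 50 and 0.79 after it, so the likeness was uneven. The most opposed to Cish were Ccdc134 (-0.69), Zfp773 and Rap2a (-0.67 each).

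Socs2 in turn was most like Cish (0.78), Gm17041 (0.70), Gabbr2, a GABA-B receptor subunit gene (0.70), Cox7a2l and St3gal5 (0.69 each). Spag1 (-0.67), Ubxn11 (-0.65) and 4933407K13Rik (-0.64) were the most opposed to it. Cish and Socs2 were thus each among the 5 genes most like the other, and they lie on different chromosomes, 9 and 10.

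Markers of islet and other cell types were set beside each gene as scores. A score was the mean over a list's genes of log2 CPM, each gene standardised across libraries. Of 75 relations 15 passed (permutation test, adjusted over the 75). The closest for Tph1 was the glia and neuron list (rho 0.43, adjusted p = 0.00300, permutation test), followed by the delta (0.28), acinar (0.28) and endothelial (0.27) lists. The first passed under all 7 alternatives, whereas those of the delta, acinar and endothelial lists did not always pass. None of the 7 left out the run of libraries with high Tph1 or the run with low Cish. The part of those runs in the relations to the marker lists was therefore not tested. Tph2 rose with the fibroblast (0.30) and delta (0.29) lists. Its relation to the macrophage list (0.23) did not pass (adjusted p = 0.0827, permutation test). Taken singly in edgeR, 8 of the 10 macrophage genes rose with Tph2, against 11.1% of all genes. Without libraries above 90, 6 of 10 did, against 8.08%. Prlr rose with the enterochromaffin list (0.39, adjusted p = 0.00450, permutation test), which holds Slc18a1, and with the beta cell list (0.31). It fell with the endothelial list (-0.28). The relation of Prlr to the beta cell list did not pass without libraries above 90. That to the enterochromaffin list did not pass without the low-count filter, nor that to the endothelial list without the 10 libraries of lowest totals.

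Cish rose with the glia and neuron (0.35), endothelial (0.29) and beta cell (0.27) lists and fell with the lymphocyte (-0.33) and division (-0.31) lists. Its relation to the endothelial list did not pass with DESeq2 size factors or with the deposited values. Without libraries above 90 its relations to the lymphocyte, division and beta cell lists did not pass. Socs2 rose with the pancreatic polypeptide cell list alone (0.31), which also did not pass without those libraries. The part of these cell types in the levels of the 5 genes and in the relations among them was not tested.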

How the data were processed

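Islet poly(A) RNA was sequenced in 95 libraries, per the labels' protocols, at 16411809 to 34357253 counts each. The authors deposited a table of estimated counts per gene, without normalization (67.7% of values whole to within 1e-06), a table of variance-stabilised values on a scale close to log2, and a table of gene positions. The submitters' processing notes name GRCm38 and DESeq2; the aligner, counting tool and strand setting are not given in the sources used here. No label gives strain or sex, so all libraries were left ungrouped.

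Estimated counts were rounded for edgeR 4.0.16, scaled to CPM by TMM (factors 0.463 to 1.36), and log2 CPM used a prior count of 2. Each gene past the filter was regressed on each member's log2 CPM by edgeR's quasi-likelihood test with Benjamini-Hochberg adjustment, called under 0.05. Relations used two-sided permutation tests of 100000 resamples, whose smallest p is 1e-05. Exon lengths came from GENCODE M21 and promoter sequences from RefSeq. The 27 gene lists (216 of 241 genes in the table) and the 5 genes were chosen with earlier results of these data known. Named beside them are any gene of a pathway list, the most abundant marker of a list, and per member the 5 most and 3 least alike genes; Cpa3 and Hdc were chosen after their values were seen. Some genes of the lists are not reported here. On simulated counts for 15766 genes, 200 of 200 given a slope of 0.5 on Cish were recovered with 7 false calls. The simulated libraries were independent and every gene had the same spread. In the data, spreads differed between genes and neighbouring libraries were alike, so the number of false calls may not carry over.

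Alternatives were DESeq2 1.42.0 size factors and Wald test, no filter, a prior count of 0.5, the deposited log2-like values, totals without acinar and hormone cell genes, residuals on scores, and leaving out libraries. Leaving out libraries 9 to 16 and 40 to 48, or 76 to 85, and neighbour differences were added after seeing the data.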

Additional observations from a re-analysis of the deposited data

How the results depend on the processing

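The correlation of Cish with Socs2 passed under every alternative run, with a rho from 0.68 to 0.83, and levels, spreads and the other pairs kept their calls under the alternatives of scaling, filter, prior count and deposited values, apart from the values below. No paired analysis was possible because the labels give no groups and no replicate numbers. Depth limits Tph1 most, with 3 counts or fewer in 49 of 95 libraries. The cause of each change was not tested.

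Scaling by totals without acinar and hormone cell genes gave Prlr a median of 448 CPM, and without the low-count filter 7713 genes exceeded a coefficient of 50%. At 2.5 deviations 3 libraries stood apart in Tph1, 3 in Prlr, and 1 in Socs2, and at 4 deviations 1 in Cish. With differences between neighbouring libraries rho was 0.29 for Tph1 and Tph2, 0.14 for Tph1 and Cish, 0.26 for Tph2 and Socs2 and 0.32 for Prlr and Socs2, and none passed. At numbers of 50 or lower rho was 0.07 for Prlr and Socs2, lost, and 0.47 for Tph2 and Cish, gained. Above 50 it was 0.14 for Tph1 and Cish, 0.23 for Tph1 and Socs2 and 0.22 for Tph2 and Socs2, all lost, and 0.55 for Prlr and Cish, gained. Without libraries 76 to 85 Prlr and Socs2 had 0.22, lost. Without libraries 9 to 16 and 40 to 48 rho was 0.21 for Tph2 and Socs2, lost by rho, and 0.44 for Prlr and Cish, gained. For Tph1 it was 0.19 with Cish, 0.23 with Socs2 and 0.26 with Prlr there. Those values are a description, because Tph1 was near the limit of detection and did not pass the low-count filter without that run.

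Genes falling with Prlr numbered 2147 and with Cish 2456 without libraries above 90, and genes falling with Socs2 numbered 1823 without libraries 9 to 16 and 40 to 48. Of 142 slopes called on the pathway lists, 105 kept sign and call without libraries above 90, and 92 of the 135 that could be fitted did so without libraries 9 to 16 and 40 to 48. The 6 that changed sign without libraries above 90 were Jak2 (0.00) and Gbp8 (0.33) on Prlr, and Tgm2 (0.10), Jak2 (0.01), Jak3 (0.06) and Osm (0.03) on Cish. Without libraries 9 to 16 and 40 to 48 they were Gch1 (-0.03), Men1 (-0.02), Bcl2l1 (-0.02) and Pim3 (-0.04) on Tph1 and Men1 (0.00) on Cish, and without libraries 76 to 85 Wipi1 (0.03) and Pim1 (-0.01) on Cish. None of these 13 slopes passed the test after the change. The 135 include slopes on Tph1. Without libraries 9 to 16 and 40 to 48 those are a description, because Tph1 did not pass the low-count filter there.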

Other observations

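A list of 10 G1 regulators past the filter gave relations to the inhibitors in both directions: 3 rose and 2 fell with Cish (background 16.1% and 23.8%), and 2 rose and 3 fell with Socs2 (background 12.5% and 17.8%). Cdkn1a, the p21 inhibitor of cell division, rose by 0.29 per doubling of Cish and by 0.34 per doubling of Socs2, and neither slope passed edgeR's quasi-likelihood test without libraries 76 to 85. Cdkn1b, the p27 inhibitor, fell by 0.13 per doubling of Cish and by 0.16 per doubling of Socs2. The slope on Socs2 did not pass without libraries 76 to 85. Cdkn2b, the p15 inhibitor, rose by 0.12 and 0.27, and its slope on Cish was 0.09 and did not pass without libraries 9 to 16 and 40 to 48 (edgeR adjusted p = 0.0805). In that setting 1 of the list rose and 3 fell with Cish, against 12.5% and 18.5% of all genes, and without libraries 76 to 85, 3 rose and 5 fell, against 16.1% and 24.7%.

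Among transcription factor genes known from serotonin neurons, Fev, at a median of 4.63 CPM, rose with Tph1 by 0.09 per doubling (SE 0.0278, edgeR adjusted p = 0.00892). Lmx1b fell by 0.24 per doubling of Tph2 (SE 0.0508, edgeR adjusted p = 6.04e-04) and Nkx2-2 by 0.10. Of the 5 such genes past the filter, 1 rose and 0 fell with Tph1, against 13.4% and 13.4% of all genes, and 0 rose and 2 fell with Tph2, against 11.1% and 7.96%. The slope of Lmx1b passed under all 9 alternatives run. That of Fev passed under those that kept the run of libraries where Tph1 is high. Without that run it was 0.13, given as a description, because Tph1 did not pass the low-count filter there.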
